A study of Mus musculus with 4 samples.

Results

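Integrins are cell surface receptors built from 1 alpha and 1 beta subunit, which bind the extracellular matrix outside the cell and the actin or keratin skeleton inside it. The alpha subunit largely sets which matrix protein is bound, and a beta subunit such as Itgb1 is shared by many alpha subunits. In mammary epithelium they anchor cells to the basement membrane, and in carcinoma cells they take part in adhesion, migration and survival signalling. The genes described here were 10 integrin subunits, 5 alpha (Itga2, Itga3, Itga5, Itga6 and Itgav) and 5 beta (Itgb1, Itgb3, Itgb4, Itgb5 and Itgb6), out of 30142 genes that could be named on the arrays. They were chosen by gene symbol, with earlier results of these data known. Each of the 10 was measured by 1 row of the table, so no choice between rows was needed.

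RNA of 4T1, a mouse mammary carcinoma line used as a model of metastatic triple-negative breast cancer, was measured on 4 whole-transcript arrays. Cells carrying a scramble control (NC) and cells carrying a short hairpin against MCT-1 (shMCT-1) were represented by 2 arrays each. The labels speak of shMCT-1 clones selected with puromycin at 0.5 µg/ml for 2 weeks, while the selection of the NC cells, the number of clones and the hairpin sequence are not stated in the labels. The design text calls the arrays of a group biologically independent, and nothing further says whether they were separate cultures or clones, so the p-values measure the spread between these samples only.

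The targeted transcript, Mcts1, was at 7.86 and 8.05 in NC and at 7.81 and 7.89 in the other group, a log2 difference of -0.10 (95% interval -0.42 to 0.22, adjusted p = 0.945, limma). A lower Mcts1 level was thus not detected, and the second group is named below as the arrays labelled shMCT-1. Array medians lay between 3.68 and 3.73 log2 units. Of 6 epithelial markers, the keratins Krt8 and Krt18, the cadherin Cdh1 and Epcam lay between 12.36 and 16.73 on every array. The basal keratin Krt14 was at 12.92 and 12.76 in NC against 11.12 and 11.20, and the claudin Cldn7 at 5.35 and 5.15 against 6.93 and 6.88, neither past the adjusted threshold (adjusted p = 0.669 for both, limma). Of other cell types, 5 fibroblast markers lay between 2.92 and 3.57, 5 endothelial markers between 3.13 and 4.24 and 3 platelet markers between 3.57 and 3.99. Because whole cultures were measured, fewer cells making a transcript and less transcript per cell cannot be told apart.

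The question was how the level of each subunit differed between the arrays labelled shMCT-1 and NC. Of the 10 subunits, 9 had a lower mean in the arrays labelled shMCT-1 and 1, Itgav, had a mean 0.011 higher. The differences were small, from -0.50 log2 units for Itgb5 to 0.011 for Itgav, with a median of -0.17 against 0.024 over all rows. With 1 array left out, 7 or 8 of the 10 had a lower mean, and the median was nearest to 0 without NC replicate 2, at -0.059. After median centring or a further quantile normalization all 10 had a lower mean. A lower mean was found for 43.6% of all rows and for 41.6% of bright rows (mean above 5.49 log2 units, the upper quartile), to which 9 of the 10 subunits belonged. With limma on all 65956 rows, 0 of the 10 subunits had an adjusted p under 0.05 (0% of all rows did), and 0 had an unadjusted p under 0.05 (5.61% of all rows and 8.98% of bright rows). All 10 intervals for the difference included 0, and the adjusted p ran from 0.882 for Itga5 to 0.998 for Itga3.

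**Figure D1:**
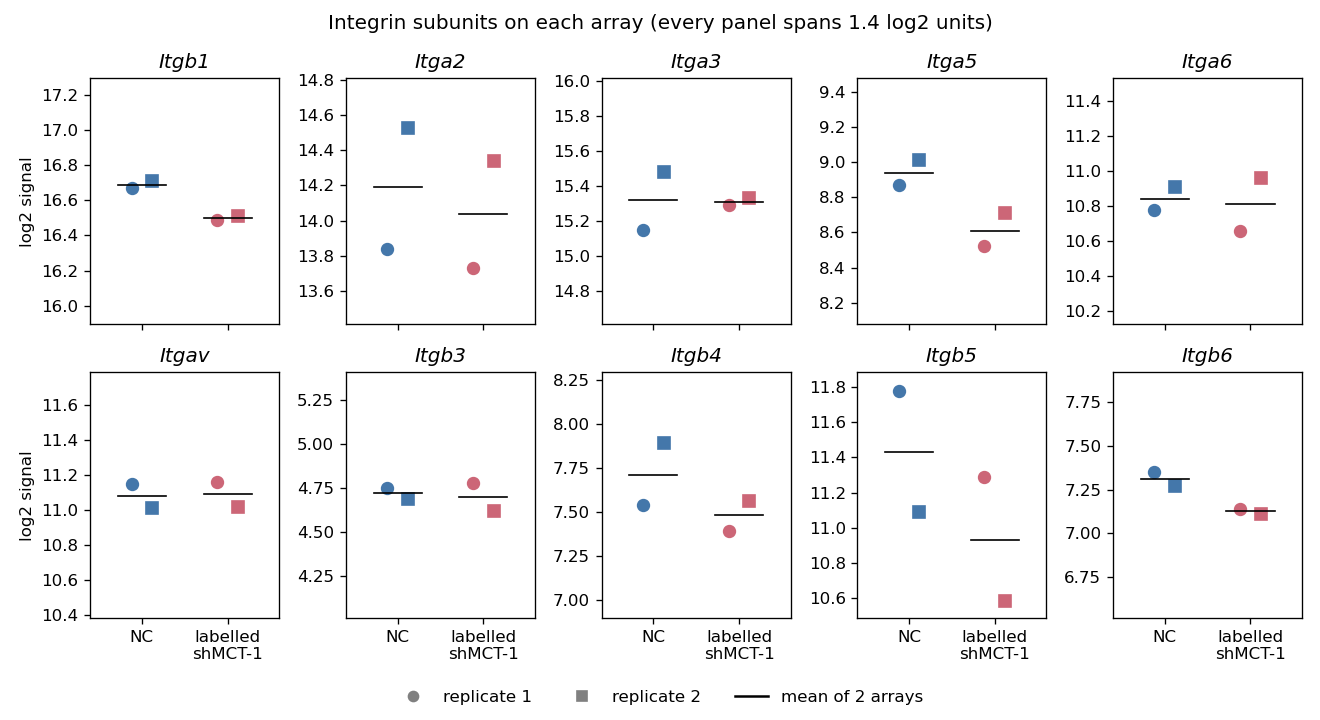
Log2 signal (vertical axis) of the 10 integrin subunits on the 4 arrays, by group (horizontal axis), with replicate 1 as circles, replicate 2 as squares and the mean of 2 arrays as a black line. Every panel spans the same number of log2 units around its own centre. In Itgb1, Itga5 and Itgb6 both arrays labelled shMCT-1 lie below both NC arrays, and in Itgb5 and Itga2 the replicates of a group lie further apart than the group means.

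Itgb1, the beta subunit that pairs with most matrix-binding alpha subunits, was at 16.67 and 16.71 in NC and at 16.49 and 16.51 in the arrays labelled shMCT-1. Both labelled arrays were below both NC arrays, and the replicates of each group lay close together. The log2 difference was -0.19 (SE 0.103, 95% interval -0.45 to 0.083, adjusted p = 0.897, limma), a 1.14-fold lower level. It lay between -0.21 and -0.17 when any 1 array was left out. At such bright signals arrays can compress a difference.

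Itga5, which with Itgb1 forms the main fibronectin receptor, was at 8.87 and 9.01 in NC and at 8.52 and 8.71 in the arrays labelled shMCT-1. The groups did not overlap, with a gap of 0.162 between the nearest arrays. Its difference of -0.33 (SE 0.127, 95% interval -0.66 to 0.0072, limma) had the lowest unadjusted p of the 10 subunits, 0.0534, and corresponds to 79.8% of the NC level. With 1 array left out it lay between -0.42 and -0.23.

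Itga2, which with Itgb1 forms a collagen receptor, was at 13.84 and 14.53 in NC and at 13.73 and 14.34 in the arrays labelled shMCT-1. The replicates, not the groups, set the order of these values, with both replicate 1 arrays low and both replicate 2 arrays high. The log2 difference of -0.15 (SE 0.318, 95% interval -0.99 to 0.68, adjusted p = 0.979, limma) turned to 0.19 without NC replicate 2 and to 0.16 without the array labelled shMCT-1 replicate 1.

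The laminin-binding subunits Itga3 and Itga6 had nearly equal means in the groups. Itga3, which pairs with Itgb1, was at 15.15 and 15.48 in NC and at 15.29 and 15.33 in the arrays labelled shMCT-1, so the labelled arrays lay inside the range of the NC arrays. Its log2 difference was -0.0082 (SE 0.148, 95% interval -0.40 to 0.38, limma). Itga6, which pairs with Itgb1 or with Itgb4, was at 10.78 and 10.91 in NC and at 10.66 and 10.96 in the arrays labelled shMCT-1, which lay on both sides of the NC arrays. Its log2 difference was -0.034 (SE 0.147, 95% interval -0.42 to 0.35, limma). Both signs turned when 1 array was left out.

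Itgb4, the partner of Itga6 in hemidesmosomes, which tie the keratin skeleton to laminin, was at 7.54 and 7.89 in NC and at 7.39 and 7.56 in the arrays labelled shMCT-1. The groups overlapped by a small margin, since NC replicate 1 lay just below the labelled replicate 2. The log2 difference of -0.23 (SE 0.163, 95% interval -0.66 to 0.19, adjusted p = 0.906, limma) became -0.41 without NC replicate 1 and -0.058 without NC replicate 2.

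Itgav, the alpha subunit shared by the receptors for vitronectin and for latent TGF-beta, was at 11.15 and 11.01 in NC and at 11.16 and 11.02 in the arrays labelled shMCT-1. The arrays of equal replicate number were within 0.02 of each other, and the log2 difference was 0.011 (SE 0.120, 95% interval -0.30 to 0.32, limma). That interval leaves room for a level between 81.1% and 125% of NC. Its sign turned when each array was first centred on its median (-0.015) and after a further quantile normalization (-0.018).

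Itgb5, Itgb6 and Itgb3, which are among the beta subunits that pair with Itgav, differed in their values. Itgb5, which with Itgav binds vitronectin, was at 11.78 and 11.09 in NC and at 11.29 and 10.58 in the arrays labelled shMCT-1. The groups overlapped, because the labelled replicate 1 lay above NC replicate 2, and in both groups replicate 1 was the higher array. The log2 difference of -0.50 was the farthest from 0 among the 10 subunits, with the widest interval (SE 0.337, 95% interval -1.38 to 0.39, adjusted p = 0.906, limma), and it corresponds to between 38.4% and 131% of the NC level. It was -0.15 without NC replicate 1, -0.84 without NC replicate 2, -0.85 without the labelled replicate 1 and -0.14 without the labelled replicate 2.

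Itgb6, an epithelial beta subunit that with Itgav binds latent TGF-beta, was at 7.35 and 7.27 in NC and at 7.14 and 7.11 in the arrays labelled shMCT-1. The groups did not overlap, with a gap of 0.134 between the nearest arrays. The log2 difference of -0.19 (SE 0.105, 95% interval -0.46 to 0.088, adjusted p = 0.897, limma) lay between -0.23 and -0.15 when any 1 array was left out. Itgb3, which with Itgav or the platelet subunit Itga2b binds vitronectin and fibrinogen, was at 4.75 and 4.69 in NC and at 4.78 and 4.62 in the arrays labelled shMCT-1. It was the 1 subunit that was not among the bright rows, its groups overlapped, and its difference of -0.024 (SE 0.117, 95% interval -0.33 to 0.28, limma) turned sign when NC replicate 1 or the labelled replicate 2 was left out.

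**Figure D2:**
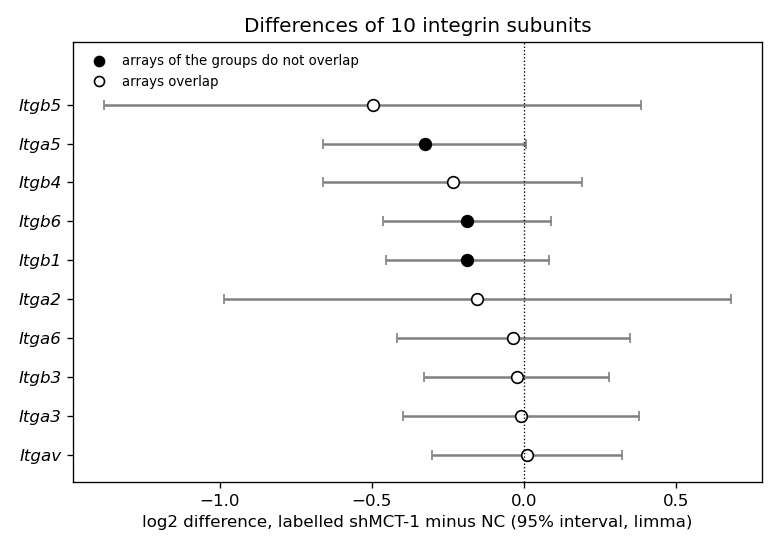
Log2 difference, arrays labelled shMCT-1 minus NC (horizontal axis), of the 10 integrin subunits, with 95% intervals from limma as grey bars. Filled points mark the 3 subunits whose groups do not overlap, and every interval includes 0. In these 3 both labelled arrays lie lower, which held for 14.0% of all rows and 17.4% of bright rows.

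With 4 arrays, the 2 highest and the 2 lowest values of a row can fall in 3 ways, by group, by replicate number or crossed. For 3 subunits, Itgb1, Itga5 and Itgb6, both arrays labelled shMCT-1 lay below both NC arrays, which held for 14.0% of all rows and 17.4% of bright rows. For 0 subunits did both labelled arrays lie above, against 19.8% of all rows and 20.8% of bright rows. The other 7 were divided by replicate number, against 40.2% of all rows and 50.3% of bright rows. Itga2, Itga3, Itga6 and Itgb4 were higher in both replicate 2 arrays, and Itgav, Itgb3 and Itgb5 were higher in both replicate 1 arrays. An exact permutation test of 2 against 2 arrays cannot give a two-sided p below 0.333, so separation of the groups cannot pass a threshold for any single gene.

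The gap between replicates had the same sign in both groups for all 10 subunits, and its size was similar for those with the widest gaps. Replicate 2 minus replicate 1 of Itga2 was 0.69 for NC and 0.62 for the arrays labelled shMCT-1, and that of Itgb5 was -0.69 and -0.71. The gaps of Itga3 (0.33 and 0.046) and Itgb4 (0.35 and 0.17) differed more between the groups. For 6 of the 10 subunits the gap in each group was larger than the difference between the group means. Neither of these counts was taken over all rows, so whether they are particular to the subunits cannot be told. Gaps of the same sign occur in every row divided by replicate number, which were 40.2% of all rows and 50.3% of bright rows. They can occur in other rows too, as in those of Itgb1, Itga5 and Itgb6. The labels do not state whether the replicate number marks a shared culture, day or batch, and its part in these values was not tested.

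**Figure D3:**
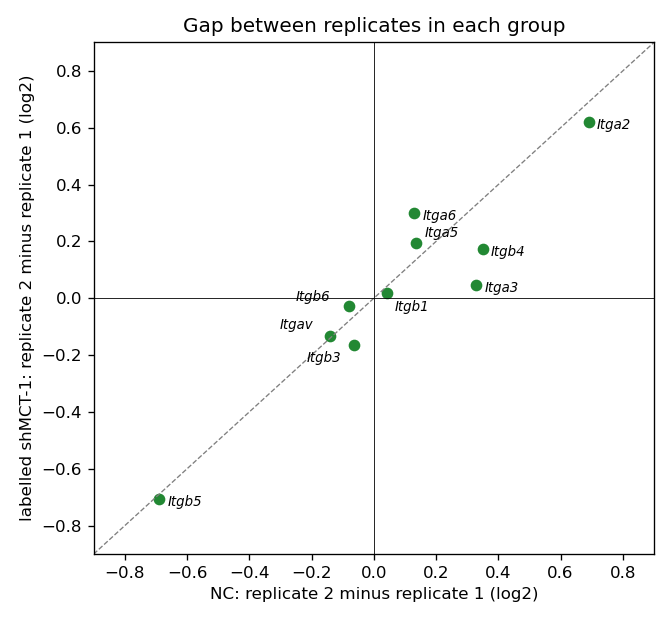
Replicate 2 minus replicate 1 of each integrin subunit in log2 units, for NC (horizontal axis) and for the group labelled shMCT-1 (vertical axis). The dashed line marks equal gaps in both groups. Itga2 and Itgb5 lie at opposite ends near this line, at gaps of 0.69 and 0.62 and of -0.69 and -0.71.

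The promoter sequences of the 3 subunits with separate groups and of Itgb5, which had the difference farthest from 0, are shown because these windows precede the transcripts whose levels are compared. Of the 10 subunits, 7 had an entry in the RefSeq promoter table (build GRCm38.p6), and Itga6, Itgb3 and Itgb4 had none. Each run gives the 250 bases before the annotated start of the gene, 5′ to 3′ on its own strand, with GC boxes in capitals. The windows were chr8:128685404-128685653, plus strand, for Itgb1, chr15:103366792-103367041, minus strand, for Itga5, chr16:33829415-33829664, plus strand, for Itgb5, and chr2:60722604-60722853, minus strand, for Itgb6.
Itgb1: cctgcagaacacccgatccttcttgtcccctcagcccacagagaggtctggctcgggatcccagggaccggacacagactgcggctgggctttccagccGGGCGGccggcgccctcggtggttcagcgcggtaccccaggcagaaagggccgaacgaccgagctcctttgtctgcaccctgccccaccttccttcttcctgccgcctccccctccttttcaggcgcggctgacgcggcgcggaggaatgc
Itga5: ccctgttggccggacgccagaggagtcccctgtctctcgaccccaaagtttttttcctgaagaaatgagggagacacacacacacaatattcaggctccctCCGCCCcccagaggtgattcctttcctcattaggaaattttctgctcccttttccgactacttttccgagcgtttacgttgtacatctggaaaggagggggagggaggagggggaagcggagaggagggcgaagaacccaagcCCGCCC
Itgb5: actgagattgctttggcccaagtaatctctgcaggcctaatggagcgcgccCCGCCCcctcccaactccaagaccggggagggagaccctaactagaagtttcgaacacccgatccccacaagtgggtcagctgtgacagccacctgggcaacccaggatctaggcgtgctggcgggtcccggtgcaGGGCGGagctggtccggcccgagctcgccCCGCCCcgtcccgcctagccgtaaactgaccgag
Itgb6: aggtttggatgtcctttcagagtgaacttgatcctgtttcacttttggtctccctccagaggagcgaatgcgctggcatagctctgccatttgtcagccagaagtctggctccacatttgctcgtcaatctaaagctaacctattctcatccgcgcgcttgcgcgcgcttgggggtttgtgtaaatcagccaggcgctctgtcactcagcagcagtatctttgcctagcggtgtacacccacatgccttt

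The GC box, a binding motif of Sp1-type factors (GGGCGG on either strand), occurred in 1 place upstream of Itgb1, in 2 upstream of Itga5 and in 3 upstream of Itgb5, and in 32.7% of the 32851 windows of this length in the table. It was not among the letters of the Itgb6 window shown, nor of a second Itgb6 entry that does not lie at the start of the gene. TATA box letters (TATAAA, 12.4% of windows) and AP-1 motif letters (TGANTCA, 6.75% of windows), both searched on either strand, had 0 matches in the 4 windows shown.

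The other integrin subunits form a list of 16, of which 15 were measured, since the row that names Itga1 also names a second gene. Of the 15, 7 had a lower and 8 a higher mean, with a median log2 difference of 0.0054, and 0 passed after adjustment in limma, while 1, Itgb2, had an unadjusted p under 0.05, a share near the 5.61% of all rows. Most gave dim signals, and 5 had a mean above the median of all rows. Itgb2, the beta subunit of the leukocyte integrins, had the difference farthest from 0 in this list, at 7.96 and 7.88 in NC and at 7.08 and 6.78 in the arrays labelled shMCT-1. Its groups were separate and its log2 difference was -0.99 (SE 0.142, 95% interval -1.36 to -0.61, unadjusted p = 0.00121, adjusted p = 0.882, limma), between -1.14 and -0.84 with any 1 array left out. The alpha partners of Itgb2, namely Itgal, Itgam, Itgax and Itgad, lay between 3.11 and 3.63 on every array.

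As leukocytes are the usual source of Itgb2, the leukocyte markers were read beside it. Of 9 listed, 8 were measured, and 5 of these, among them Ptprc (the pan-leukocyte phosphatase CD45, 3.33 to 3.48), Cd3e and Adgre1, lay below the median of all rows. The 3 above it were Cd68, Csf1r and Itgb2 itself. The mean over the 8 markers was 5.04 and 4.57 in NC against 4.65 and 4.50 in the other group. Over the 3 above the median it was 8.06 and 6.92 against 6.97 and 6.75. The macrophage marker Cd68 was highest on NC replicate 1, at 10.15 against 8.26 on NC replicate 2. Csf1r was also highest on NC replicate 1, at 6.07 and 4.61 in NC against 5.27 and 4.47 in the other group. The part of such cells in the difference of Itgb2 was not tested. Of the other subunits above the median signal, Itga8 was at -0.34, Itga7 at 0.33, Itgb7 at 0.13 and Itga2b at -0.0094 log2 units, and none of these passed.

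Focal adhesion adaptors and kinases connect the cytoplasmic tails of integrins to actin and to signalling. Of 28 measured genes (31 listed), 23 had a lower and 5 a higher mean, beside 43.6% of all rows and 41.6% of bright rows with a lower mean. Their median log2 difference was -0.13, against 0.024 over all rows and 0.046 over bright rows. In 16 of the 28 both arrays labelled shMCT-1 lay below both NC arrays and in 1 (Tns3) above. The backgrounds were 14.0% and 19.8% of all rows, and 17.4% and 20.8% of bright rows. Of the 28, 0 passed after adjustment, while 4 had an unadjusted p under 0.05 in limma, as had 5.61% of all rows and 8.98% of bright rows, to which 24 of the 28 belonged. Ptk2b, a kinase of the focal adhesion kinase family, was at 8.29 and 8.08 in NC and at 7.61 and 7.70 in the arrays labelled shMCT-1 (-0.53, SE 0.126). Tns4, a tensin that binds integrin beta tails, was at -0.53 (SE 0.187), and the actin linker Vcl (vinculin) was at -0.37 (SE 0.171). The adaptors Pxn (paxillin, -0.33) and Bcar1 (p130Cas, -0.35), chosen after their values were seen, also had separate groups. With 1 array left out, the median lay between -0.17 and -0.16 and between 21 and 24 of the 28 had a lower mean. The share of all rows with a lower mean was not counted there.

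Of 16 measured activators and inhibitors of integrins, 6 were lower and 10 higher, with a median of 0.028, and 0 passed in limma with or without adjustment. The median turned to -0.012 without NC replicate 1, to -0.014 without the labelled replicate 2 and to -0.030 after quantile normalization. Tln1, the talin that switches integrins on by binding the beta tail, was at 9.33 and 9.21 in NC and at 8.98 and 9.03 in the arrays labelled shMCT-1, a difference of -0.26 (SE 0.109, adjusted p = 0.882, limma). Slc3a2, the CD98 heavy chain that binds beta tails, was at -0.20 and Kank1, a talin-binding scaffold, at 0.16. The kindlin Fermt1, a co-activator chosen after its values were seen, was at 12.55 and 13.43 in NC and 12.74 and 13.45 in the arrays labelled shMCT-1, so that its values followed the replicate number as those of Itga2 did.

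The hemidesmosome partners of Itga6 and Itgb4 held both large and small differences. Of 8 measured genes (9 listed) 5 were lower and 3 higher, with a median of -0.16, and 0 passed after adjustment in limma against 2 before it (5.61% of all rows and 8.98% of bright rows). Leaving out NC replicate 1 or the labelled replicate 2 moved this median to -0.40 and -0.36, and leaving out NC replicate 2 or the labelled replicate 1 moved it to -0.034 and -0.049. Krt14, a basal keratin, was at -1.68 (SE 0.118, adjusted p = 0.669, limma), and Lamb3, a chain of laminin-332, was at -0.45 (SE 0.233), from -0.72 to -0.18 with 1 array left out. Cd151, a tetraspanin that binds the laminin-binding integrins, was at 13.40 and 13.46 in NC and at 12.91 and 12.96 in the arrays labelled shMCT-1. Its groups were separate, with a difference of -0.49 (SE 0.105, 95% interval -0.77 to -0.22, unadjusted p = 0.00618, adjusted p = 0.882, limma). The cytolinker Plec, which joins Itgb4 to keratins, was at 0.0064 (SE 0.256) and was chosen after its values were seen.

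Tetraspanins and genes of integrin trafficking were divided, with 10 of 18 lower, 8 higher, a median of -0.046, and 0 past the adjusted threshold in limma against 2 before adjustment. That count is near the 8.98% of bright rows, to which 17 of the 18 belonged (5.61% of all rows). It includes Cd151, which was also counted among the hemidesmosome partners. Lama3 and Lamb3 likewise stand among both the hemidesmosome partners and the ligands, so the counts of these lists are not independent. Besides Cd151, the tetraspanin Cd81 was at -0.34 (SE 0.266, from -0.64 to -0.040 with 1 array left out) and Ap2m1, a subunit of the endocytic AP-2 adaptor, at -0.32 (SE 0.104). Of 22 measured ligands (24 listed), 12 were lower and 10 higher, with a median of -0.025, and 0 passed after adjustment in limma against 4 before it (5.61% of all rows and 8.98% of bright rows). Thbs1, a thrombospondin, was at 0.88 (SE 0.533), and from 0.31 to 1.45 with 1 array left out. The tenascin Tnc was at 0.65 (SE 0.363, from 0.23 to 1.06) and the basement membrane collagen Col4a2 at -0.64 (SE 0.139). Fn1, the fibronectin bound by the Itga5 receptor, was at 14.07 and 14.00 in NC and at 14.41 and 14.36 in the arrays labelled shMCT-1, a difference of 0.35 (SE 0.105, unadjusted p = 0.0228, adjusted p = 0.882, limma), and was chosen after its values were seen. Itga5 and Fn1 had differences of opposite sign, neither past the adjusted threshold, and a relation between them was not tested.

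**Figure D4:**
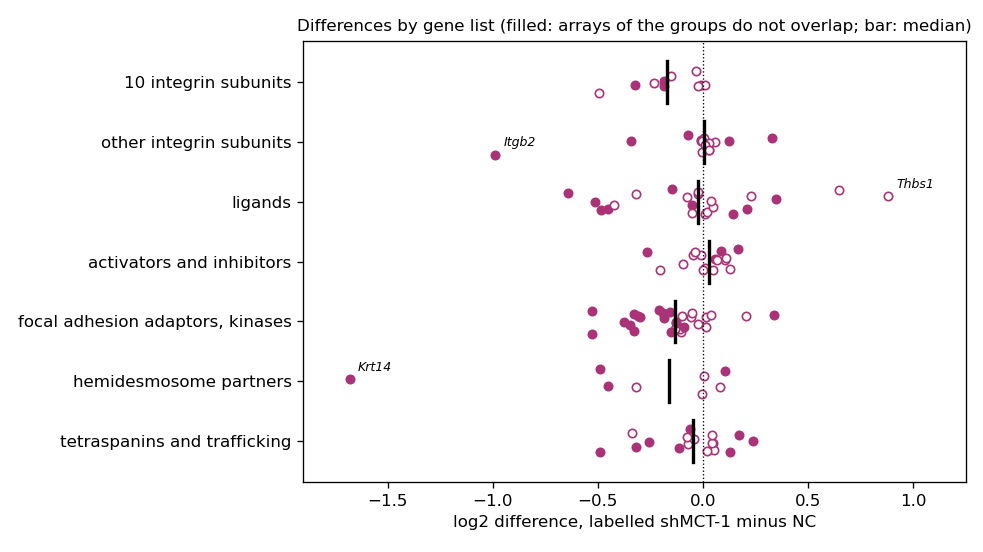
Log2 difference, arrays labelled shMCT-1 minus NC (horizontal axis), of each gene in the 10 integrin subunits and in the 6 lists of related genes (vertical axis, points spread for legibility), with medians as black bars. Filled points mark genes whose groups do not overlap. Both labelled arrays lie below both NC arrays in 3 of the 10 subunits and 16 of the 28 focal adhesion genes. They lie above in 0 and 1. Below and above shares were 14.0% and 19.8% of all rows, and 17.4% and 20.8% of bright rows. The same counts were 3 and 2 of 15 other subunits, 6 and 3 of 22 ligands and 1 and 3 of 16 activators and inhibitors. They were 3 and 1 of 8 hemidesmosome partners and 5 and 3 of 18 tetraspanin and trafficking genes.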

How the data were processed

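The 4 columns of the deposited table hold log2 expression summaries made by the authors with Affymetrix Expression Console and gene-level RMA, per the submitters' processing notes. Tool versions and options, and the build, are not given in the sources. RMA can compress very bright and very dim signals, so a log2 difference there may understate a change. Values ran from 1.29 to 19.88 and were used as deposited, with 0 columns left out. Of 65956 rows, 30604 had 1 gene symbol in the probe table, 2146 had several and 33206 were not listed there, and 827 symbols were updated through gene IDs.

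The brightest row by the mean of 4 arrays stood for a gene. Differences, shMCT-1 minus NC, were fitted on all rows with limma 3.58.1 in R 4.3.3 (lmFit, eBayes, two-sided, Benjamini-Hochberg over all rows, threshold 0.05), with 2 residual and 2.72 prior degrees of freedom. The fit was run on simulated arrays with known changes and noise independent between arrays. That run checked the size of the estimated differences and not the p-values. The number of arrays limits the precision.

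The 10 subunits, the 6 lists of related genes (110 genes, 104 measured) and the marker lists were chosen with earlier results of these data known. Genes named from a list had to pass the threshold, or, where none did, were the 3 farthest from 0 among rows above the median signal of 3.68, and all other integrin subunits above it. Alternatives were an intensity trend, robust moderation, array weights, a filter on dim rows, quantile normalization, median centring, the mean over a gene's rows, the replicate number as a block, and leaving out each array in turn.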

Additional observations from a re-analysis of the deposited data

How the results depend on the processing

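Under all 12 alternatives 0 of the 10 subunits and 0 of the 104 listed genes passed the adjusted threshold, and 0 rows did so in the 11 of these that fit single rows. The lowest adjusted p of any subunit or of Itgb2 was 0.275. Between 7 and 10 of the 10 subunits had a lower mean. Of 120 differences of single subunits under alternatives, 108 kept their sign and 12 turned it. Many of the 108 could not turn. The intensity trend, robust moderation, the filter on dim rows, the replicate block and the mean over rows leave a subunit's difference unchanged. Array weights were equal within each group and hardly moved it. All 12 turns came with quantile normalization, median centring or 1 array left out. Itgav turned to -0.018 after quantile normalization and to -0.015 after median centring. With 1 array left out, Itga2 ran from -0.50 to 0.19, Itga3 from -0.17 to 0.16, Itga6 from -0.18 to 0.12, Itgav from -0.060 to 0.082 and Itgb3 from -0.11 to 0.059.

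Subunits with separate and lower groups numbered 5 after quantile normalization and 4 to 6 with 1 array left out, where fewer arrays make separation easier. The share of all rows with such groups was not counted under these alternatives, so these numbers cannot be set against a background. Rows at an unadjusted p under 0.05 numbered 1926 among rows above the median signal, where fewer rows were tested, and 1984 to 5926 with 1 array left out. After quantile normalization 1 subunit, Itga5, had such a p, and the cause was not tested. A lone array in a group was assumed to vary like the other group.

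A replicate block gave 7537 such rows, and 2 subunits, Itgb5 (unadjusted p = 0.00642, adjusted p = 0.315) and Itga5 (unadjusted p = 0.0306, adjusted p = 0.395), had one in limma, with 0 past the adjusted threshold. Deviations of same-numbered arrays from their group means correlated at 0.42 across rows, which with 2 pairs does not show that the numbers pair the samples.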

Other observations

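Of genes named after integrins outside the lists, chosen by symbol after the values were seen, Itgb3bp, a centromere protein first found through its binding of the Itgb3 tail, was at 5.67 and 5.66 in NC and at 5.80 and 5.88 in the arrays labelled shMCT-1 (log2 difference 0.18, SE 0.105, adjusted p = 0.898, limma). Itgbl1 was at 0.058, Itgb2l at 0.022 and Itgb1bp2 at 0.020 log2 units, all with signals between 3.23 and 3.56. Itgb1bp1, which binds the tail of Itgb1, was measured by 2 rows that gave log2 differences of 0.069 and 0.42, the second in the dimmer row.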
